A study of Mus musculus with 4 samples.

Results

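The Hox genes are the 39 homeobox genes of the mouse HoxA, HoxB, HoxC and HoxD clusters, taken as all gene symbols made of Hox, a cluster letter and a number. They were 39 of the 32286 features of the count tables. Their UMIs (unique molecular identifiers, 1 per captured transcript) were counted in the 24856 cell barcodes that held 500 or more genes and no more than 10% mitochondrial UMIs. Of the 39 members, 17 had at least 1 UMI in these cells and 22 had none. Together they held 2389 UMIs, 0.00437% of all UMIs, in 1432 cells, of which 384 held at least 2 Hox UMIs.

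The cells were sorted by tdTomato fluorescence from mouse cerebella at stage E15.5 (embryonic days). The 2 control libraries came from Ptf1aCre/+; R26LSL-tdT/+ embryos and the 2 En1/2 CKO (conditional knockout) libraries from Ptf1aCre/+; En1lox/lox, En2lox/lox; R26LSL-tdT/+ embryos, so both genotypes carried 1 Cre allele at Ptf1a and the reporter. Ptf1a encodes a transcription factor of the progenitors of cerebellar GABAergic neurons, and Cre from that locus marks cells with a history of Ptf1a expression, in the hindbrain outside the cerebellum too. En1 and En2 encode the Engrailed homeodomain proteins of the midbrain and anterior hindbrain. Each library was a pool of animals, so p-values measure only the spread between 2 pools per genotype.

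Hox proteins are homeodomain transcription factors that set position along the head-to-tail axis, and a gene's place in its cluster matches how far forward in the embryo it is expressed. In the hindbrain, genes of paralog groups 1 to 4 are switched on in nested sets of rhombomeres, the transient segments of the hindbrain, while groups 5 to 13 act mainly in the spinal cord and trunk. The cerebellum arises from rhombomere 1, which lies in front of the Hox domain and is marked instead by genes such as En1, En2 and Gbx2. Hox proteins bind DNA with cofactors of the TALE homeodomain class, chiefly Pbx and Meis proteins, and several hindbrain Hox genes respond to retinoic acid.

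Promoter sequence is the 250 bases before the start in RefSeq (GRCm38.p6). It is shown for the 3 members of groups 2 to 4 whose window held no annotated exon. Genes of these groups were found in the same cells, and the cofactor gene Meis2 was higher in cells with at least 2 Hox UMIs. The 3 genes shown shared few cells: Hoxa2 and Hoxb4 16, Hoxa2 and Hoxd4 8, and Hoxb4 and Hoxd4 3. RefSeq rows existed for 22 of the 39 symbols and for 6 of the 9 members with at least 20 UMIs, and the windows of the other 3 overlapped exons. Capitals mark matches to 3 motifs searched on both strands: TGACAG (Meis), TGATTNAT (Pbx-Hox, here on the other strand, read as ATCAATCA) and TTTATGG (Cdx or caudal Hox).
Hoxa2, chr6:52164832-52165081, minus strand: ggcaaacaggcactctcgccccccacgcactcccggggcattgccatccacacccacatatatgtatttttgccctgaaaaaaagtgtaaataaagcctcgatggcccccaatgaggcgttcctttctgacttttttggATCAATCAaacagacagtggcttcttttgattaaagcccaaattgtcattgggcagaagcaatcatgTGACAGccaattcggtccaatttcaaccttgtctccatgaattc
Hoxb4, chr11:96318017-96318266, plus strand: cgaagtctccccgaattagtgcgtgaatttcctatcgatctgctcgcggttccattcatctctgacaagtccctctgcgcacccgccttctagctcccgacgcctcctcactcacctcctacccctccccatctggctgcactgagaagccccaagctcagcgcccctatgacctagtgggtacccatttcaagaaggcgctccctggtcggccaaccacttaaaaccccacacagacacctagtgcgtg
Hoxd4, chr2:74721728-74721977, plus strand: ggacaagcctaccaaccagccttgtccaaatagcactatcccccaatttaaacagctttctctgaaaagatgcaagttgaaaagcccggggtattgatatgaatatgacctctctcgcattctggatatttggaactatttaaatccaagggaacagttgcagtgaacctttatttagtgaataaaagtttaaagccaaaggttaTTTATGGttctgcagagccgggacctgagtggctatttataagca
The Hoxa2 window held 1 Meis match, starting 44 bases before the start, and 1 Pbx-Hox match 111 bases before it. The Hoxd4 window held 1 TTTATGG, 45 bases before the start, and the Hoxb4 window held no match. Over all 32851 promoter rows, 15.9% held TGACAG, 2.82% TGATTNAT and 2.43% TTTATGG, and of the 24 Hox rows 2, 2 and 1 did. The matches are descriptions of the letters in these windows.

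The libraries differed in depth and quality. The barcodes that passed the cell filter were 94.6% and 25.5% of all in control 1 and control 2, and 63.9% and 69.8% in En1/2 CKO 1 and 2, with kept UMIs between 2996321 and 18446914 and a median of 1119 to 2431 UMIs per kept cell. Control 1 stood apart, with the nuclear RNA Malat1 at 85252 CPM (a gene's UMIs over all UMIs of the library, as counts per 1e6) against 30630 to 33569 in the other 3. Between 1 and 22 kept barcodes were shared by any pair of libraries, at most 0.274% of the smaller one. En1 stood at 110 and 76.8 CPM in the controls and 69.1 and 62.6 in the mutants, and En2 at 101 and 48.1 against 30.3 and 15.6. Whether the floxed parts hold the 3' ends that are counted is not given in the sources used here. TdTom, the reporter, was present in all libraries, at 455 to 667 CPM.

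Nearly all Hox UMIs came from the genes that pattern the hindbrain. Paralog groups 2, 3 and 4 held 98.7% of them, with 50.3% (exact 95% interval 48.2 to 52.3%) in group 2, 39.6% (37.7 to 41.6%) in group 3 and 8.75% (7.65 to 9.95%) in group 4. All 9 members of these groups had UMIs and each had at least 20. Intervals cover counting error only, since UMIs of 1 cell are not independent.

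In group 2, whose genes have the most anterior limits of the Hox family in the hindbrain, Hoxa2 (chr6:52162417-52164831) had the most UMIs of all members. It was at 6.02 and 19.0 CPM in control 1 and 2 and at 12.6 and 18.6 CPM in En1/2 CKO 1 and 2. Control 1 was lowest, and the other control was level with the higher mutant. Hoxb2 (chr11:96350525-96354012), which acts with Hoxa2 in rhombomere patterning, was at 3.35 and 6.34 CPM in the controls and at 6.46 and 15.8 CPM in the mutants. Both mutants were above both controls, the nearest pair by a small margin.

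Group 3 genes pattern the caudal hindbrain and its cranial nerves. Hoxb3 (chr11:96323326-96347930) was at 1.20 and 12.3 CPM in the controls and 6.24 and 12.7 CPM in the mutants. Hoxa3 (chr6:52169062-52213336) was at 2.14 and 8.68 CPM in the controls and 5.31 and 9.76 CPM in the mutants. Hoxd3 (chr2:74711927-74748442) was at 1.20 and 3.004 CPM in the controls and 1.81 and 8.02 CPM in the mutants. For all 3 genes control 1 was lowest, En1/2 CKO 2 highest, and the groups overlapped. The Hoxa3 gene model spans Hoxa4, Hoxa5 and Hoxa6 on the same strand and the Hoxd3 model overlaps Hoxd4, so that UMIs of these neighbours may have been split between them. In all, 11 members overlapped a gene on the same strand and 14 a gene on the other strand.

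Group 4 genes have their anterior limit in the last rhombomeres and had the fewest UMIs of the 3 groups. Hoxb4 was at 0.669 and 1.00 CPM in the controls and 0.985 and 3.52 in the mutants, and Hoxa4 at 0.268 and 0.667 against 0.876 and 1.52. Hoxc4, the member of the group from the HoxC cluster, had 0 and 1 UMIs in the controls and 5 and 28 in the mutants. Hoxd4 had 3 UMIs in each control and 5 and 18 in the mutants. Of the 34 Hoxc4 UMIs, 28 were thus from En1/2 CKO 2.

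**Figure D1:**
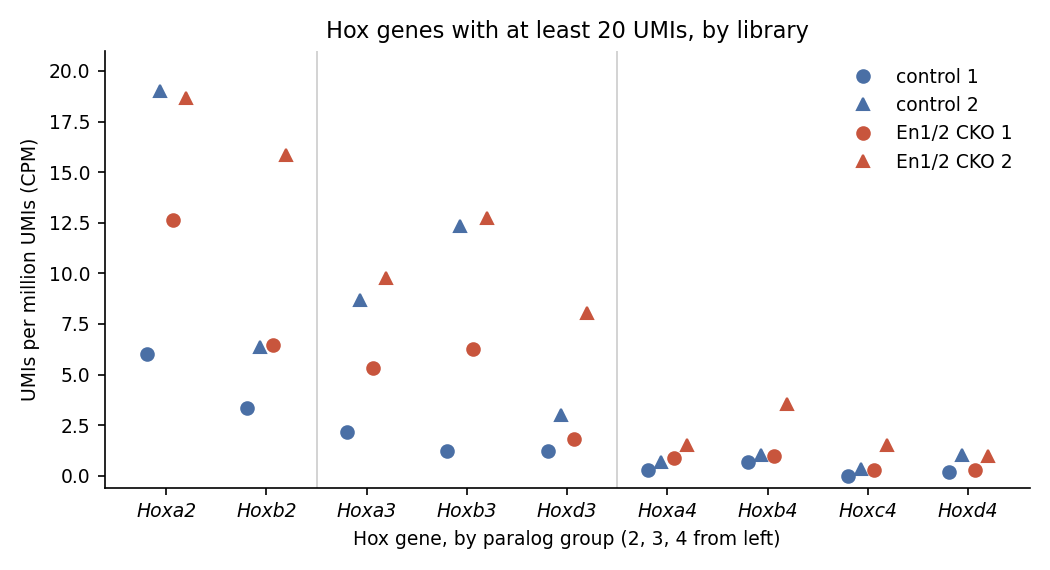
Level of the 9 Hox genes with at least 20 UMIs, in CPM of each library (vertical axis), ordered by paralog group along the horizontal axis; each point is 1 library, blue for control and red for En1/2 CKO. Control 1 is the lowest point for every gene, at 6.02 CPM for Hoxa2, and En1/2 CKO 2 is the highest for all but Hoxa2 and Hoxd4.

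Members outside these groups were close to absent. The 3 members of group 1, which act in the early hindbrain, had 18 UMIs in all. The 27 members of groups 5 to 13, the spinal cord and trunk genes, had 14 UMIs: 5 of Hoxa5, 4 of Hoxc5, 2 of Hoxa7 and 1 each of Hoxb5, Hoxd8 and Hoxd9. The others of them had no UMI. A count of 0 over all kept cells allows up to 0.0549 CPM (3 counts).

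Cells with Hox UMIs were present in every library, in unequal numbers. With at least 1 Hox UMI there were 213 cells (2.05%) in control 1, 91 (7.73%) in control 2, 304 (5.81%) in En1/2 CKO 1 and 824 (10.2%) in En1/2 CKO 2. With at least 2 Hox UMIs there were 11 (0.106%, exact 95% interval 0.0528 to 0.189%), 33 (2.80%, 1.94 to 3.92%), 117 (2.23%, 1.85 to 2.67%) and 223 (2.77%, 2.43 to 3.16%). Control 1 was far below the other 3 libraries, whose intervals for at least 2 UMIs overlapped. With UMIs of at least 2 different Hox genes there were 8, 28, 98 and 176 cells. With every cell thinned to 1000 UMIs and shallower cells left out (2792, 163, 1165 and 3321 cells), the shares with at least 1 Hox UMI were 1.48%, 4.04%, 2.46% and 6.44%, against 2.25%, 8.48%, 6.83% and 12.99% in the same cells before thinning. Control 1 stayed lowest and En1/2 CKO 2 highest. The most Hox UMIs in 1 cell were 4, 12, 14 and 25 in the 4 libraries, and the most Hox genes in 1 cell 3, 4, 6 and 8. Cells with at least 2 Hox UMIs held 11.0% of all Hox UMIs in control 1 and 63.8%, 71.1% and 55.6% in the others.

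Single Hox UMIs were also seen in blood and immune cells, which came mainly from En1/2 CKO 2. Erythroid-like cells, led by haemoglobin genes, had at least 1 Hox UMI in 6.45% of 2094 cells at a median of 859.5 UMIs, and microglia or macrophage-like cells in 9.82% of 682 cells at a median of 2090.5. Thinned to 1000 UMIs, erythroid-like cells had a Hox UMI in 1.74%, 2.78%, 6.25% and 8.19% of cells in control 1, control 2, En1/2 CKO 1 and En1/2 CKO 2. Interneuron-like cells had one in 1.35%, 5.85%, 2.63% and 5.08% and progenitor-like cells in 0.746%, 2.05%, 2.29% and 4.82%. Progenitor-like cells were thus below erythroid-like cells in each library and interneuron-like cells in all but control 2. The erythroid-like shares were 2 of 115, 1 of 36, 2 of 32 and 33 of 403 cells. This order therefore rests on very few cells outside En1/2 CKO 2. A single Hox UMI in these classes is not read as expression here. Over all libraries astroglia-like cells stood at 8.20% and cluster 13 of cycling cells at 9.55%, while macrophage-like cluster 19, with 293 of its 313 cells from En1/2 CKO 2, reached 11.1%. In barcodes that failed the cell filter, Hox UMIs were at 9.55 and 35.5 CPM in the controls and 34.6 and 64.1 CPM in the mutants, in the same order as in kept cells (15.2, 53.4, 35.4 and 73.5 CPM). Most erythroid-like cells (1443) were from En1/2 CKO 2, the library with most Hox UMIs. Within that library they had at least 1 Hox UMI in 7.97% of cells, and interneuron-like cells in 7.95%.

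At least 2 Hox UMIs in 1 cell were more frequent in cycling-like and astroglia-like cells than in erythroid-like cells in each of the 4 libraries, before thinning. In control 1 this rested on 1 of 153 cycling-like and 1 of 443 astroglia-like cells, against 0 of 525. Thinned to 1000 UMIs, control 1 had 0 of 144 cycling-like and 0 of 115 erythroid-like cells. Over all libraries at least 2 Hox UMIs were found in 0.334% (7 of 2094) of erythroid-like cells and 0.733% (5 of 682) of microglia or macrophage-like cells. The share was 7.22% (89 of 1232) in cycling-like cells at a median of 4966.5 UMIs, 4.01% (72 of 1795) in astroglia-like cells at 1366, and 1.74% (21 of 1204) in granule lineage-like cells at 1788. It was 1.25% (72 of 5744) in interneuron-like cells at 1254.5, 1.12% (70 of 6235) in progenitor-like cells at 1377 and 0.799% (15 of 1877) in Purkinje-like cells at 1305. The depths differ, and at 1000 UMIs the shares fell to 1.26% (0.710 to 2.08%) in cycling-like and 0.827% (0.414 to 1.48%) in astroglia-like cells, against 0.171% (0.00432 to 0.947%) in erythroid-like cells. These intervals overlapped. Cluster 13, at 3.50% (1.76 to 6.18%), lay above the interval of the erythroid-like cells but overlapped that of cluster 19, at 1.17% (0.142 to 4.16%). Clusters were made without any Hox gene, and their names are rebuilt here from marker genes.

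**Figure D2:**
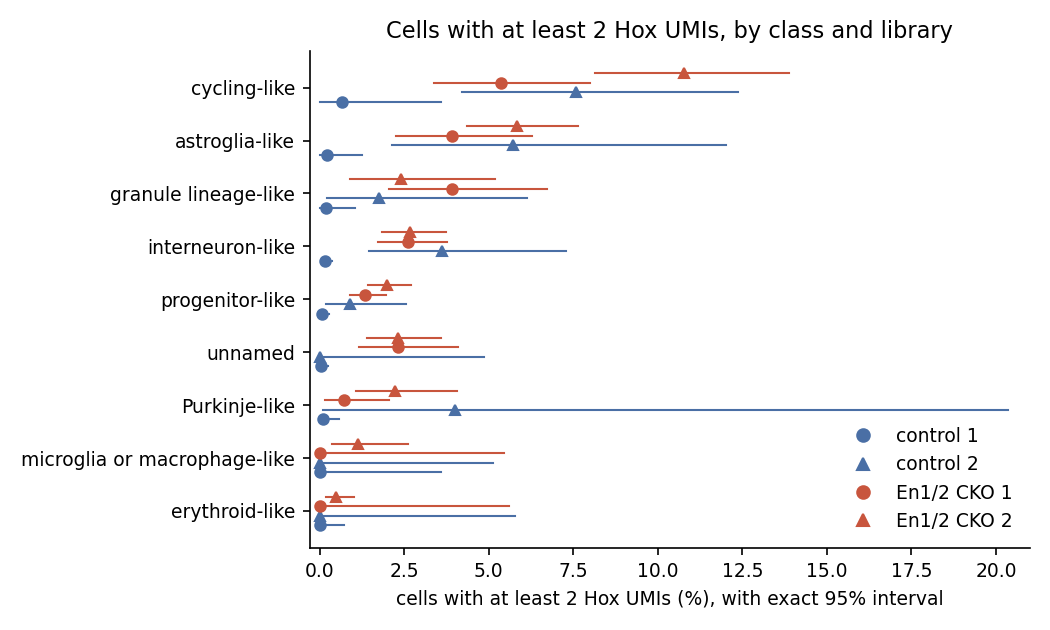
Percent of cells with at least 2 Hox UMIs (horizontal axis, with exact 95% intervals) in each class with at least 20 cells in every library (vertical axis); each point is 1 library, blue for control and red for En1/2 CKO. Erythroid-like cells reach at most 0.485%, in En1/2 CKO 2, while cycling-like cells reach 10.8% in that library.

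By cluster, cells with at least 2 Hox UMIs were spread over most neural types. Of the 384, 23.2% were cycling-like, 18.8% astroglia-like, 18.8% interneuron-like, 18.2% progenitor-like, 8.07% in unnamed clusters, 5.47% granule lineage-like, 3.91% Purkinje-like and 1.82% erythroid-like. Cluster 13, led by the cell cycle genes Spc25, Rrm2 and Pclaf, had a Hox level of 142 CPM over 344 cells. This was the highest of all clusters over the pooled libraries. Among clusters with at least 20 cells of the library, cluster 13 was also highest in each library but control 1. Its level was 35.2 and 120 CPM in the controls and 104 and 220 CPM in the mutants, and the cells with at least 2 Hox UMIs were 1 of 72, 10 of 81, 9 of 74 and 24 of 117. Control 1 was again lowest and the groups overlapped.

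Astroglia-like cluster 12, which also had the oligodendrocyte genes Olig1 and Olig2 among its leading genes, was at 42.8 and 117 CPM in the controls and 66.1 and 144 CPM in the mutants. It was above cluster 13 in control 1 and nearly level with it in control 2. Hoxb2 and Hoxa2 were at 27.1 and 25.6 CPM there, and Hoxd3 at 15.3 CPM against 0.784 CPM in interneuron-like cells. Among interneuron-like clusters the level in control 1, control 2, En1/2 CKO 1 and En1/2 CKO 2 was 21.9, 102, 93.7 and 129 CPM in cluster 1 (led by Robo3 and Pnoc). It was 9.28, 73.4, 60.4 and 66.1 CPM in cluster 8 (led by Neurod1) and 11.0, 55.1, 4.94 and 29.02 CPM in cluster 7 (led by Igfbp5 and Sst). Cluster 1 was the highest of the 3 in each library. Cluster 4 of newborn neurons, named Ptf1a intermediate progenitor-like from 3 of 11 markers and led by Neurog1 with Lhx1, Crabp1 and Lbx1 among its leading genes, had no Hox UMI in the 99 cells of control 1, 35.0 CPM in control 2 and 43.9 and 89.0 CPM in the mutants. Radial progenitor-like cluster 10, led by Gdf10, was at 9.50 CPM and had no cell with at least 2 Hox UMIs among 1954 (exact 95% interval up to 0.189%).

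The finer clustering, at Leiden resolution 2, gave 2 clusters richer in Hox UMIs. Interneuron-like cluster 23, led by Pnoc, Cnr1 and Meis2, was at 224 CPM over 453 cells, with 104 CPM in control 1, 281 CPM in En1/2 CKO 1 and 311 CPM in En1/2 CKO 2. Control 2 had 4 cells there, too few for a level. Cycling-like cluster 3, led by the retinoic acid-binding protein gene Crabp1, was at 174 CPM over 467 cells, with 28.7 and 112 CPM in the controls and 146 and 263 CPM in the mutants. In both clusters control 1 was the lowest of the libraries with at least 20 cells. Of the 15 clusters of the coarser clustering with at least 20 cells in each library, control 1 had the lowest Hox level in 9 and the highest in 0, and En1/2 CKO 2 the highest in 12. Both mutants were above both controls in 4 of the 15 and below them in 0.

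Purkinje cells are the GABAergic output neurons of the cerebellar cortex, and among Purkinje-like cells the Hox level was 15.1 CPM in cluster 9 (led by Nrgn and Foxp2) and 38.8 CPM in cluster 16 (led by Fgf3, Nefl and Nefm among others). These levels are pooled over libraries. In control 1 they were nearly level, at 12.9 and 14.8 CPM. In the mutants they were 3.66 and 47.2 CPM (En1/2 CKO 1) and 35.9 and 65.0 CPM (En1/2 CKO 2). Control 2 had only 4 and 21 cells there. Cluster 16 had 14 of the 15 Purkinje-like cells with at least 2 Hox UMIs. By library (control 1 and 2, En1/2 CKO 1 and 2) it had 1, 0, 3 and 10 such cells. Of the 14, 5 held UMIs of at least 2 different Hox genes. Of the Purkinje-like cells with a UMI of Prph or Sncg, genes better known from brainstem and peripheral neurons, 4 of 34 had a Hox UMI (11.8%, 3.30 to 27.5%), against 51 of 1843 without (2.77%, 2.07 to 3.62%), at median depths of 2261.5 and 1302 UMIs. The intervals overlapped and the depths differed.

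Hox genes of different clusters and groups were found in the same cells. Hoxa2 and Hoxb2 shared 93 cells, Hoxa2 and Hoxb3 77, Hoxb2 and Hoxb3 72, Hoxa2 and Hoxa3 67, and Hoxa3 and Hoxb3 66. These pairs include genes on chromosomes 6 and 11. Of cells with a Hoxa2 UMI, 30.6% (177 of 579) held another Hox gene, against 3.51% of cells without Hoxa2. The share for Hoxa2 was 4.49% (4 of 89) in control 1, 39.1% in control 2 and 35.5% and 34.5% in the mutants, so that control 1 stood apart. For Hoxb3 the shares over all libraries were 51.4% (150 of 292) and 4.64%, and for Hoxa3 50.4% (132 of 262) and 4.76%. Deeper cells have more UMIs of every gene, and these shares were not adjusted for it. Of cells with at least 2 Hox genes, 7 of 8 in control 1 and 82.1%, 81.6% and 81.8% in the other libraries held genes from at least 2 of the 4 Hox clusters.

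**Figure D3:**
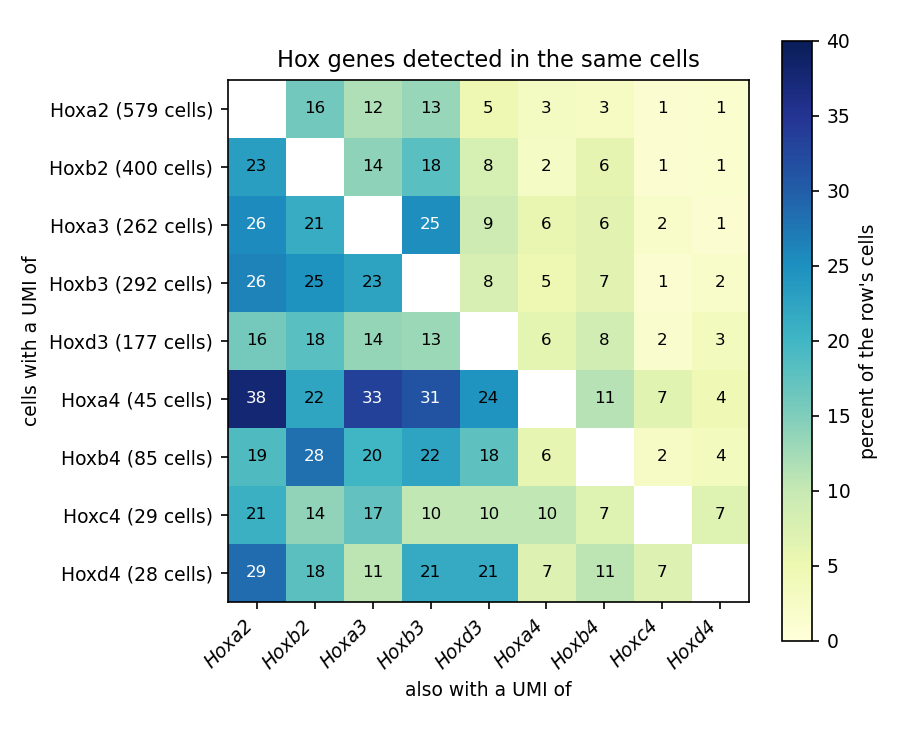
Percent of the cells with a UMI of the gene in the row (number of cells in brackets) that also had a UMI of the gene in the column, over all 4 libraries. Group 2 and 3 genes stand together, with Hoxb3 in 13.3% of the Hoxa2 cells and Hoxa2 in 26.4% of the Hoxb3 cells.

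The most posterior Hox gene of a cell was usually from group 3. Among cells with at least 2 Hox genes it was of group 3 in 4 of 8, 18 of 28, 63 of 98 and 98 of 176 cells of the 4 libraries (control 1 and 2, En1/2 CKO 1 and 2), and of group 4 in 1, 5, 20 and 50 of them. It was of group 5 or higher in 0, 0, 1 and 3 cells. Group 4 was the most posterior in 35.0% (21 of 60) of such astroglia-like cells and in 12.3% (7 of 57) of interneuron-like cells. The shares of group 4 in the libraries, 12.5%, 17.9%, 20.4% and 28.4%, had overlapping exact intervals.

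Antisense and noncoding transcripts of the Hox clusters were detected beside the coding genes. Hoxb3os, which overlaps Hoxb2 and Hoxb3 on the other strand, had 61 and 20 UMIs in the controls and 95 and 231 in the mutants, and 121 of its 347 cells also held a Hox UMI. Hoxaas2 had 19, 15, 44 and 56 UMIs, and 63 of its 120 cells held a Hox UMI. Hoxaas3 had 2, 8, 8 and 35 UMIs in the same order. Whether counting used strand is not given in the sources used here, so reads of overlapping pairs may have been confused.

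No Hox gene passed the threshold between genotypes. The comparison asks whether loss of Engrailed went with a change in Hox genes over all sorted cells, and was made on UMI sums per library with edgeR's quasi-likelihood test (Benjamini-Hochberg adjustment over 14929 genes, threshold 0.05). It tested 8 Hox genes, the 9 above without Hoxc4, which failed the filter on low counts, and called 0 of them, with 0.0% of all genes called. At an unadjusted p under 0.05 there were 686 genes, none of them Hox. DESeq2 called 39 genes higher and 8 lower, again none of them Hox.

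All 8 estimates were above 0, with wide errors. The log2 fold change of Hoxa4 was 1.66 (SE 0.70, adjusted p = 0.957 by edgeR), that of Hoxb4 1.499 (SE 0.83), of Hoxd3 1.38 (SE 0.93) and of Hoxb2 1.24 (SE 0.60). Hoxb3, Hoxd4, Hoxa3 and Hoxa2 were at 0.65, 0.62, 0.59 and 0.34 with SEs of 0.60 to 1.09. Both mutants were above both controls for Hoxa4 and Hoxb2, 2 of the 8, while 22.8% of all genes tested showed this. In sums over all cells, fewer cells of a type and less RNA per cell cannot be told apart. Control 1 and En1/2 CKO 2 decided the sign of several genes. Without control 1, Hoxa2, Hoxa3, Hoxb3 and Hoxd4 were at -0.38, -0.30, -0.47 and -0.76. Without En1/2 CKO 2, Hoxa2, Hoxa3, Hoxb3 and Hoxd3 were at -0.017, -0.0035, -0.080 and -0.16. Hoxa4, Hoxb2 and Hoxb4 kept a positive sign without each library in turn. In simulated data of this size edgeR recovered 94% of 4-fold and 15% of 2-fold changes, which were set only in genes at 20 CPM or more. All 8 Hox genes were below that level, so these rates do not cover them.

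**Figure D4:**
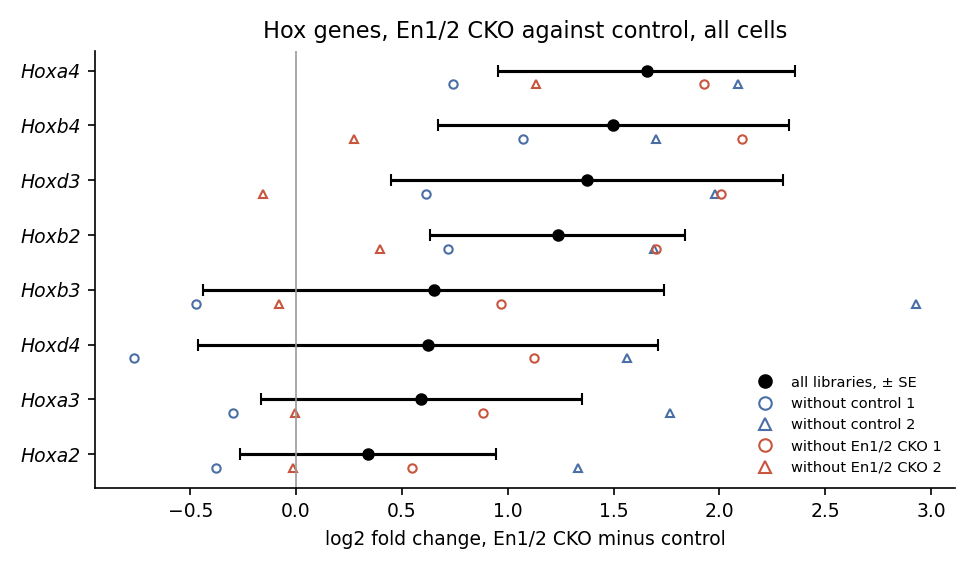
Log2 fold change of En1/2 CKO over control in the UMI sums of all cells (horizontal axis) for the 8 Hox genes tested (vertical axis); black points with bars are the edgeR estimate ± SE from all libraries, and open symbols the estimate without 1 library. Hoxa4 is at 1.66 and Hoxa2 at 0.34, and the estimates without control 1 lie to the left of the black points, at -0.38 for Hoxa2.

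Within classes the tests reached few Hox genes. In interneuron-like cells 4 of the 39 members (Hoxa2, Hoxa3, Hoxb2, Hoxb3) passed the filter and 0 were called, with 0.0% of 10766 genes called. At an unadjusted p under 0.05 there were 446 genes, 2 of them Hox, and DESeq2 called 1 gene, not a Hox gene. Hoxb2 was at 4.26 and 2.29 CPM in the controls and 8.21 and 10.8 CPM in the mutants, a log2 fold change of 1.24 (SE 0.43, edgeR adjusted p = 0.998). Hoxa3 was at 1.57 and 13.8 CPM against 10.0 and 17.6 CPM, with overlapping groups and a log2 fold change of 2.13 (SE 0.86). Both mutants were above both controls for Hoxb2 alone of the 4, and for 18.6% of all genes tested. Without control 2, edgeR called Hoxa2, Hoxa3 and Hoxb3 higher, together with 9.89% of all genes, and without control 1 the same 3 genes were below 0. Without the filter on low counts Hoxa3 alone was called, with 0.0969% of genes called higher.

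In progenitor-like cells the same 4 members were tested and 0 called, with 0.0% of 11935 genes called and 635 at an unadjusted p under 0.05, none of them Hox. DESeq2 called 2 genes, neither of them Hox. Hoxb2 was at 1.78 and 3.98 CPM in the controls and 4.24 and 10.4 CPM in the mutants, a log2 fold change of 1.62 (SE 0.77, edgeR adjusted p = 0.823), and was the 1 gene of the 4 with both mutants above both controls, against 20.3% of all genes. Without control 2, Hoxa2, Hoxb2 and Hoxb3 were called higher together with 8.06% of all genes. In Purkinje-like cells no Hox gene passed the filter on low counts.

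In cluster 13, the richest in Hox UMIs, Hoxa2 and Hoxb2 were tested and 0 called, with 0.0% of 5470 genes called and 298 at an unadjusted p under 0.05, 1 of them Hox (Hoxb2), while DESeq2 called 0. The unadjusted edgeR p of Hoxb2 was 0.0061. Hoxb2 had 0 and 2 UMIs in the controls and 12 and 31 in the mutants, at 0 and 7.75 against 31.2 and 57.9 CPM, a log2 fold change of 3.25 (SE 0.90, edgeR adjusted p = 0.859). Hoxa2, at 15.1 and 42.6 against 36.5 and 41.1 CPM, overlapped between groups. Both mutants were above both controls for Hoxb2, as for 19.8% of all genes tested there. Without the filter on low counts Hoxb2 was called, with a log2 fold change of 3.31 and 0.0357% of genes called higher.

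Cells with Hox UMIs differed in other genes from cells of the same cluster. The 384 cells with at least 2 Hox UMIs (11, 33, 117 and 223 by library) were set against cells with none from the same library and cluster and of near equal depth (55, 163, 585 and 1075 cells), as UMI sums with the library as a block. Hox genes were left out of the test, since they chose the cells. Of 8027 genes, edgeR called 150 higher (1.87%) and 109 lower (1.36%) in the Hox-positive cells. DESeq2 called 26 higher (0.324%) and 21 lower (0.262%), and edgeR called all 47 of these too. The common coefficient of variation of the edgeR fit was 0.0474, against 0.274 between libraries in the comparison of genotypes over all cells, so its SEs and p-values in matched cells rest mostly on counting error and understate the spread between libraries. Without En1/2 CKO 1 edgeR called 27 higher and 26 lower, and without En1/2 CKO 2 24 higher and 26 lower.

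Crabp1, a cellular retinoic acid-binding protein gene of the embryonic hindbrain, differed most. It was at 36.4, 433, 378 and 446 CPM in the Hox-positive cells of control 1, control 2, En1/2 CKO 1 and En1/2 CKO 2, and at 0, 3.98, 27.0 and 10.9 CPM in the matched cells. It was higher in 4 of 4 libraries, with a log2 fold change of 4.62 (SE 0.13, DESeq2 adjusted p = 3.4e-26), and the value of control 1, with 11 positive cells, was 1 UMI. Meis2, a TALE cofactor of Hox proteins, was at 436, 407, 492 and 409 CPM against 96.4, 151, 104 and 116 CPM. Its groups did not overlap, and its log2 fold change was 1.94 (SE 0.09, DESeq2 adjusted p = 3.7e-23).

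The naming rule gave 6 further genes that rose outside the Hox loci. Aldoc, an aldolase of astroglia, was at 72.7, 195, 400.2 and 653 CPM against 61.3, 125, 169 and 246 CPM, a log2 fold change of 1.29 (SE 0.09). Hopx, a homeodomain-only gene of radial glia, rose by 1.302 (SE 0.11), Apoe, the lipid carrier of astroglia and microglia, by 0.78 (SE 0.09) and Mgll, monoglyceride lipase, by 2.01 (SE 0.19). Igsf8, a cell surface protein of the immunoglobulin family, rose by 0.80 (SE 0.08) and Dpysl4, of the collapsin response mediator family, by 0.82 (SE 0.09). All 6 were higher in 4 of 4 libraries and passed with DESeq2 as well, with adjusted p from 0.0030 for Igsf8 to 9.2e-10 for Mgll. In control 1 the Hox-positive sums of Hopx, Aldoc and Mgll held only 1, 2 and 3 UMIs.

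Antisense transcripts from the Hox loci also rose. Hoxb3os was at 36.4, 53.1, 42.5 and 31.3 CPM against 0, 5.97, 2.22 and 9.45 CPM, and Gm15050 (chr6:52172881-52174059, antisense within the Hoxa3 model) at 36.4, 35.4, 20.01 and 19.8 CPM against 0, 0, 1.11 and 2.21 CPM. The Hox-positive value of control 1 was 1 UMI for each of them. They overlap the genes that chose the cells, so they are not independent of that choice.

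Of the genes that were lower, Cnpy1, a gene of the isthmus and rhombomere 1, was at 0, 17.7, 20.01 and 18.3 CPM in the Hox-positive cells and 368, 79.6, 63.4 and 55.3 CPM in the matched cells. Its groups did not overlap, and the log2 fold change was -1.80 (SE 0.22, DESeq2 adjusted p = 0.0064). Neurog1, a proneural factor, fell by 1.88 (SE 0.23), Gucy1a1, a guanylate cyclase subunit, by 2.32 (SE 0.25), Pvalb, a calcium-binding protein, by 1.46 (SE 0.13) and Prss23, a serine protease, by 1.18 (SE 0.13). Sfrp2, a secreted Wnt inhibitor, fell by 0.93 (SE 0.12), and Pbx3, a TALE cofactor, by 0.89 (SE 0.10), from 649, 231, 308 and 270 CPM in matched cells to 291, 106, 158 and 161 CPM. These 7 were lower in 4 of 4 libraries and passed with DESeq2. In control 1 Gucy1a1 had only 0 UMIs in Hox-positive and 1 in matched cells. The haemoglobin genes Hba-x, Hbb-y and Hba-a1 fell by 2.44, 1.58 and 1.71 with edgeR but did not pass with DESeq2 (adjusted p = 0.9996, 0.9996 and 0.908). In the matched cells of control 1 Hba-x was at 8133 CPM, against 1.99 to 114 CPM in those of the other libraries.

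**Figure D5:**
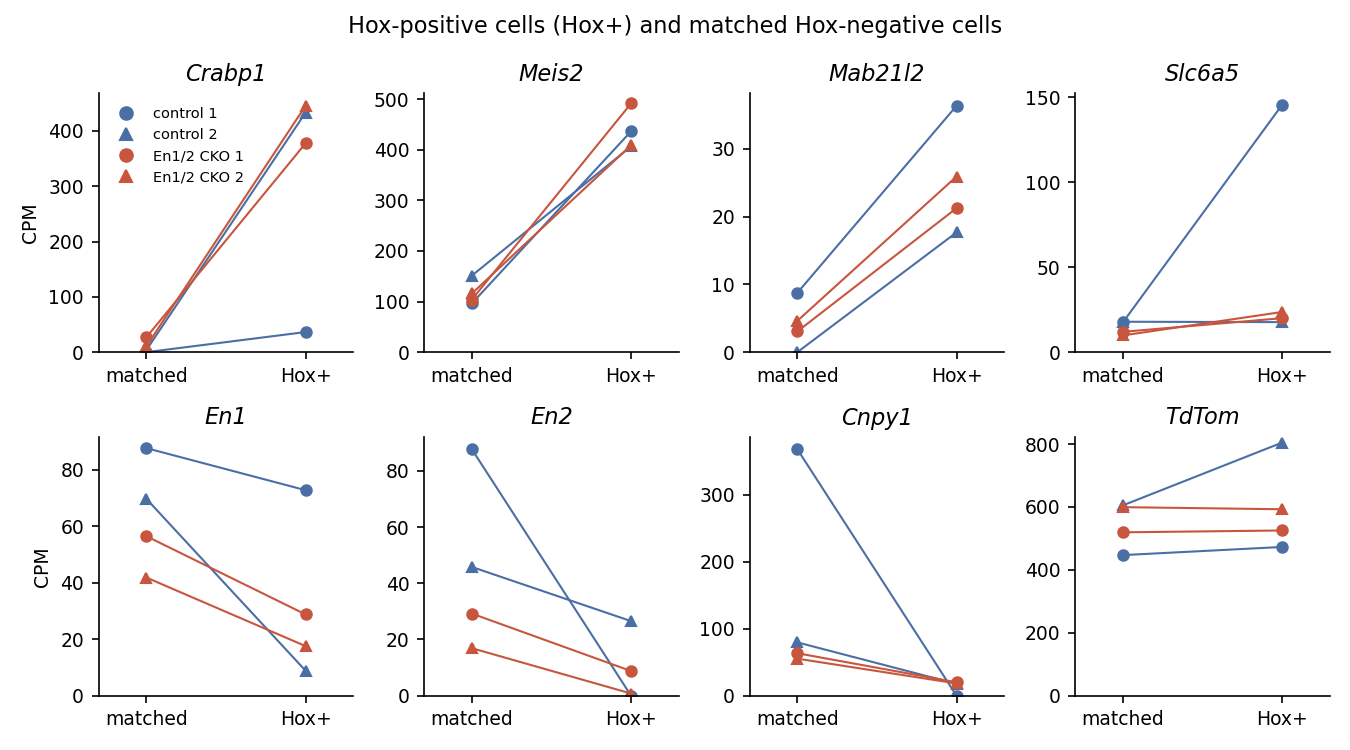
Level in CPM (vertical axes) of 8 genes in cells with at least 2 Hox UMIs (Hox+) and in matched cells without Hox UMIs; each line joins the 2 sums of 1 library, blue for control and red for En1/2 CKO. Crabp1 and Meis2 rise in all 4 libraries and Cnpy1 falls in all 4, while TdTom stays between 447 and 805 CPM.

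Of the genes of the isthmus and rhombomere 1, En1, En2, Cnpy1 and Irx2 fell in the Hox-positive cells with edgeR, and En1 and Cnpy1 with DESeq2 too. Of the 15 listed, 7 passed the filter on low counts, and 0 rose and 4 fell, where 1.87% of all genes tested rose and 1.36% fell, with a median log2 fold change of -0.44 against -0.017 over all genes tested. En1 was at 72.7, 8.84, 28.8 and 17.5 CPM against 87.6, 69.7, 56.5 and 41.8 CPM and fell by 1.19 (SE 0.22, DESeq2 adjusted p = 0.038). It missed the threshold of edgeR without En1/2 CKO 2 (adjusted p = 0.115). En2 was at 0, 26.5, 8.75 and 0.763 CPM against 87.6, 45.8, 29.2 and 16.9 CPM and fell by 2.27 (SE 0.38), but did not pass with DESeq2 (adjusted p = 0.101). Irx2 fell by 0.44 (SE 0.14) in the fit but in only 2 of 4 libraries. Gbx2, Pax2 and Irx3 did not pass, at 0.69, -0.14 and -0.15. Fgf8 and Wnt1, signals of the isthmus region, had 1 and 0 UMIs in the Hox-positive cells.

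Among the TALE cofactors 9 of 10 were tested. With edgeR 1 rose and 2 fell, where 1.87% of all genes tested rose and 1.36% fell. The called cofactors included Meis2 and Pbx3 as given above, while Meis1 at 0.18 and Meis3 at 0.20 did not pass. The median of the list, 0.022, was near that of all genes.

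Of 18 regulators of dorsal hindbrain and spinal cord neurons, 6 were tested. With edgeR 3 of them rose and 2 fell, where 1.87% of all genes tested rose and 1.36% fell. Mab21l2, a gene of developing hindbrain and eye, was at 36.4, 17.7, 21.3 and 25.9 CPM against 8.76, 0, 3.06 and 4.62 CPM. Its groups did not overlap, and it rose by 2.60 (SE 0.35, DESeq2 adjusted p = 0.00014) in 4 of 4 libraries. In control 1 and control 2 these values were only 1 and 2 UMIs in Hox-positive cells and 1 and 0 in matched cells. Lbx1, a factor of dorsal interneurons, rose by 0.54 (SE 0.13) in 3 of 4 libraries, and did not pass with DESeq2 or without either mutant library. Lhx1 and Lhx5, which Purkinje cells also express, fell by 0.49 and 0.34 with edgeR alone.

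Of 16 genes of hindbrain segmentation and axial patterning 4 were tested. With edgeR 0 of them rose and 1 fell, where 1.87% of all genes tested rose and 1.36% fell. Cyp26b1, an enzyme that degrades retinoic acid, fell by 0.63 (SE 0.10) in 3 of 4 libraries (DESeq2 adjusted p = 0.16). Cdx1, Cdx2 and Cdx4, activators of posterior Hox genes, had 0 UMIs in both sets of cells. None of the 13 Polycomb and trithorax genes tested, which keep Hox genes silent or active, was called (0 of 13, median -0.012), nor was Gsx1, the 1 gene tested of the list of Hox-like ParaHox and other cluster genes.

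Of 14 transmitter genes of the brainstem 5 were tested and 2 rose with edgeR, where 1.87% of all genes tested rose. Slc6a5, the glycine transporter, rose by 1.05 (SE 0.29) in 3 of 4 libraries (DESeq2 adjusted p = 0.50). Sncg rose by 0.90 (SE 0.20) but was higher in 1 of 4 libraries, En1/2 CKO 2, at 84.7 against 24.7 CPM.

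Markers of other cell types moved with these genes within the clusters. With edgeR 1.87% of all 8027 genes rose and 1.36% fell, and the counts of markers here are by edgeR too. Of 9 Purkinje markers tested 0 rose and 4 fell, and none of the 4 passed with DESeq2. Among them Ebf1 was at 1128, 1256, 503 and 319 CPM against 1385, 1483, 586 and 489 CPM (DESeq2 adjusted p = 0.13). Foxp2 was lower in 3 of 4 libraries but higher in control 2, at 195 against 51.8 CPM. Of 9 astroglia markers 3 rose (Aldoc, Bcan and Fgfr3) and 2 fell (Gdf10 and Timp4), and of 10 Ptf1a intermediate progenitor markers 1 rose and 5 fell. Of 14 radial progenitor markers 2 rose (Sox2 and Hopx) and 2 fell (Vim and Ednrb), of 8 interneuron markers 1 rose and 2 fell, and of 9 granule lineage markers 1 rose and 1 fell. Of 2 glutamatergic neuron markers tested 1 rose, Meis2 itself, and of 4 erythroid markers 3 fell. None of the microglia or macrophage, endothelium and meningeal fibroblast markers passed the filter, and none of 10 cycling markers was called. Their part in the differences above was not tested. TdTom was at 473, 805, 525 and 593 CPM in the Hox-positive cells and 447, 605, 519 and 599 CPM in the matched cells (log2 fold change 0.035, SE 0.08, edgeR adjusted p = 0.951). The matched cells were of the same clusters and of near equal median depth, 1721 against 1727 UMIs in control 1 and 4717 against 4409 in En1/2 CKO 2.

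Crabp1 and Meis2 were not called between genotypes. Over all cells Crabp1 was at 15.9 and 23.7 CPM in the controls and 31.1 and 50.4 CPM in the mutants (log2 fold change 0.99, SE 0.37). Meis2, at 83.0 and 107 against 109 and 134 CPM, had a log2 fold change of 0.28 (SE 0.25). Both mutants were above both controls for both genes, and the edgeR adjusted p of each was 0.957.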

How the data were processed

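The values the authors deposited are unnormalised UMI counts for each gene in each barcode. The submitters' processing notes name Cell Ranger 6.1.0 and mm10. The other deposited files give barcodes and gene names. Whether introns or strand entered the counting is not given in the sources used here. Cells were scaled to 10000 UMIs and clustered with scanpy 1.11.5 without Hox, En1 and En2 genes (2000 variable genes, 30 components, 15 neighbours, Leiden resolution 1, doublets kept). A cluster was named "like" a type when at least 3 of its markers were raised 1.5-fold and no other list led. UMI sums per library, 2996321 to 18446914 in all, were tested with edgeR 4.0.16 (TMM, filterByExpr, 2-sided). The SE is the log2 fold change over the root of F. Genes named in matched cells passed 0.05, had at least 20 CPM in either set and 1 sign in every library, up to 10 each way, plus list members. The choice of TdTom and of cell type markers there followed a view of their values. Gene coordinates are those of GENCODE vM21 (GRCm38). Scripts were tested on simulated data. The members and lists were chosen with earlier results of these data known. Alternatives were RLE, DESeq2 1.42.0, no low-count filter, cell filter, doublet removal, resolution 2, thinning, other matching and leaving out each library. Some results are not reported here.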

Additional observations from a re-analysis of the deposited data

How the results depend on the processing

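The mean share of cells with a Hox UMI, 4.89% in controls and 8.03% in mutants, depended on the definition. The mutant mean was 2.50% with at least 2 Hox UMIs, 2.03% with 2 different Hox genes, 12.9% with the stricter cell filter and 4.45% at 1000 UMIs. The control means in the same settings were 1.45%, 1.23%, 6.96% and 2.76%. With 1 library left out it ranged from 2.05 to 7.73% in controls and from 5.81 to 10.2% in mutants. Hox genes called between genotypes were 0 over all cells under each alternative that kept all libraries. In Purkinje-like cells 0 Hox genes were tested in the main setting and several alternatives, so that no call was possible there. Without the low-count filter 9 were tested in them and 0 called. The count of Hox genes called went from 0 to 1 without the low-count filter in interneuron-like cells (Hoxa3) and in cluster 13 (Hoxb2). With 1 library left out it ranged from 0 to 3 in both interneuron-like and progenitor-like cells, with the 3 found without control 2. A lone library was then assumed to vary like the other group, and the common coefficient of variation over all cells was 0.128 between mutants and 0.377 between controls. Of 182 alternative values of 18 Hox fold changes, 160 kept sign and side of the threshold, 8 newly passed it and 14 changed sign, all with 1 library left out. Without control 1, Hoxa2, Hoxa3, Hoxb3 and Hoxd4 over all cells were at -0.38, -0.30, -0.47 and -0.76, and without En1/2 CKO 2 Hoxa2, Hoxa3, Hoxb3 and Hoxd3 at -0.017, -0.0035, -0.080 and -0.16. The highest values of Hoxa2, Hoxa3, Hoxb3 and Hoxd4 were 1.33, 1.77, 2.93 and 1.56 without control 2, and that of Hoxd3 2.01 without En1/2 CKO 1. In interneuron-like cells Hoxa2, Hoxa3 and Hoxb3 ranged from -0.54, -0.093 and -0.77 without control 1 to 1.75, 3.10 and 3.16 without control 2. In progenitor-like cells Hoxa2 and Hoxa3 ranged likewise from -0.34 and -0.40 to 1.95 and 1.33, and Hoxa2 in cluster 13 from -0.21 to 1.41. The cause was not tested. In matched cells the 259 calls fell to 47 with DESeq2 and ranged from 50 to 268 with 1 library left out. The other alternatives gave 204 to 326, and 9 of 264 values of 23 named genes lost the threshold. With the replicate number as a block, 0 Hox genes and 39 genes in all were called over all cells. The correlation of deviations between same-numbered libraries was 0.016, so the numbers are not shown to pair them.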
